A study of Homo sapiens with 6 samples.

Results

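The forkhead (FOX) genes encode transcription factors that share a winged-helix DNA-binding domain and are sorted into lettered subfamilies. The table of gene counts held 49 protein-coding genes with such a name, FOXA1 to FOXS1, among 58735 genes, of which 19951 are protein-coding. They were taken by gene name and biotype, and for 47 of them the table itself gives the transcription factor family as forkhead, while FOXI3 and FOXD4L6 have no family there. RNA came from SY5Y, a human neuroblastoma cell line. In 3 libraries DLX5, a homeodomain factor that patterns the limbs and the jaw, was overexpressed, and 3 libraries were controls. The labels give the 2 genotypes as DLX5 overexpression and Control, and do not say how DLX5 was introduced, what the control cells received, whether the cells are a clone or a pool, or whether replicates were separate cultures, so the p-values reflect library-to-library spread alone, and that spread may be technical.

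Forkhead factors bind DNA mainly through a recognition helix that is laid into the major groove. FOXA and some other FOX factors can bind closed chromatin early in development, FOXO factors are held in the cytoplasm when insulin or growth factor signals activate AKT, and FOXM1 drives the genes of G2 and mitosis. In the neural crest, the embryonic source of sympathetic neurons and hence of neuroblastoma, FOXD3 is an early specifier, and FOXC1 and FOXC2 act in the mesenchyme that the crest of the head gives rise to.

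The libraries held 14644077 to 16886026 counts, and mitochondrial genes took 7.72% to 9.13% of the counts with DLX5 overexpression and 7.10% to 7.91% in controls. DLX5 itself stood at 1569 to 1677 CPM (counts relative to the TMM-scaled library total) in the overexpressing libraries and at 12.35 to 13.76 CPM in controls, which matches the labels. The change was broad. At an adjusted p under 0.05, 10121 of 17269 tested genes passed, which is 58.6%, with 5152 higher and 4969 lower. Markers of the adrenergic neuroblastoma state summed to 1634 to 1767 CPM with DLX5 and 4571 to 5082 CPM in controls, and 9 of 9 were lower. Fibroblast markers summed to 6984 to 7231 CPM with DLX5 and 1609 to 1661 CPM in controls, with 10 of 11 higher and COL1A1, COL3A1 and LUM among them. Of the other lists, epithelial markers summed to 38.23 to 43.86 CPM with DLX5 and 12.59 to 18.09 CPM in controls (4 of 7 tested genes higher, 1 lower), Schwann cell and glial markers to 15.5 to 15.83 CPM with DLX5 and 5.177 to 7.073 CPM in controls (3 of 5 higher, 1 lower), and endothelial and blood markers to 2.712 to 3.85 CPM with DLX5 and 1.259 to 2.071 CPM in controls (1 of 4 higher, CD3E at 0 counts in all 6 libraries). Their part in the forkhead results was not tested. In bulk RNA a change in the number of cells of a type and a change of the RNA per cell cannot be told apart.

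To compare bases, the stretch of coding sequence for the centre of the recognition helix was read from the GENCODE 29 transcripts. Each line is the sense strand, 5′ to 3′, 24 bases long, and capitals mark bases that differ from FOXC1. The genes are those whose levels changed most, the pairs of paralogs of a subfamily that moved in opposite directions, FOXO3 and FOXO6 beside FOXO1, and FOXM1.
FOXC1: aacagcatccgccacaacctctcg
FOXD4: aacagcatccgccacaacctctcg
FOXD2: aacagcatccgccacaacctctcT
FOXE1: aacagcatccgccacaacctcAcA
FOXK1: aaTTCTatccgGcacaacctctcT
FOXK2: aaTTCAatTcgccacaaTctctcT
FOXJ2: aaTTCAatAcgGcacaacctTtcT
FOXJ3: aaTTCcatAcgAcaTaaTctGtcA
FOXO6: aacTCcatccgGcacaacctGtcg
FOXO3: aacTCcatccgGcacaacctGtcA
FOXO1: aaTTCAatTcgTcaTaaTctGtcC
FOXM1: aacTCcatccgccacaacctTtcC
FOXD4 has all 24 bases of FOXC1, FOXD2 has 23 and FOXE1 has 22, and of these 4 genes FOXD4 was lower and the others higher with DLX5. FOXO1 keeps 14 of the 24, against 19 in FOXO3 and 20 in FOXO6. These are counts of bases, not of amino acids. Translated, every line shown except FOXE1 reads NSIRHNLS, and FOXE1 differs only in the last amino acid. The stretch was located by an amino acid pattern, with N and R fixed and a few choices allowed at the other places. The likeness of the amino acids therefore follows in large part from the search. The bases marked in the other lines therefore leave the amino acids of this stretch the same. The pattern was found in 40 of the 49 genes and in 18 of the 21 that could be tested. Among these 18 the fewest shared bases were 13, in FOXN2 and FOXN3. FOXP1, FOXP4 and FOXR2 had no match, which does not show that they lack the helix, and FOXH1 was left out of the count. The stretch was chosen after the expression values were seen and is given as a description.

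Of the 49 forkhead genes, 21 had enough counts to be tested (42.9%, against 69.3% of all protein-coding genes and 74.2% of the 1553 genes that the table assigns to a transcription factor family). With DLX5, 11 of the 21 were higher, where 29.8% of all tested genes were higher. FOXO1, FOXC1, FOXE1 and FOXD2 rose at least 2-fold, and FOXI3, FOXO6, FOXP4, FOXO4, FOXP1, FOXJ2 and FOXK1 rose by less. FOXD4, FOXM1, FOXJ3 and FOXK2 were lower, 4 of 21, where 28.8% of all tested genes were lower. FOXO3, FOXN3, FOXA3, FOXN2, FOXR2 and FOXN4 did not pass.

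At a change of at least 2-fold the counts were 4 genes higher, against 11.3% of all tested genes and 9.28% of transcription factor genes, and 1 gene lower, against 5.18% and 4.51%. The share called among the forkhead genes in either direction, 15 of 21, can be read against 58.6% of all genes and 56.5% of the 1153 tested transcription factor genes. In the same 15 genes the 3 libraries of each group did not overlap (11 with all DLX5 libraries higher and 4 with all of them lower), where 62.5% of all tested genes had groups that did not overlap, 31.7% higher and 30.8% lower. The median log2 fold change of the 21 genes was 0.24, against 0.00 over all tested genes and 0.02 over transcription factor genes. These 21 passed a filter on low counts and are not all forkhead genes. FOXE1 (5 counts in controls) and FOXD2 (1 count in controls) passed it only through the DLX5 libraries. They could therefore enter only as higher genes, and both are among the 4 that rose at least 2-fold. With a filter of 1 CPM in 3 libraries, FOXD2 was not tested, 10 forkhead genes were higher and the median was 0.17.

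**Figure D1:**
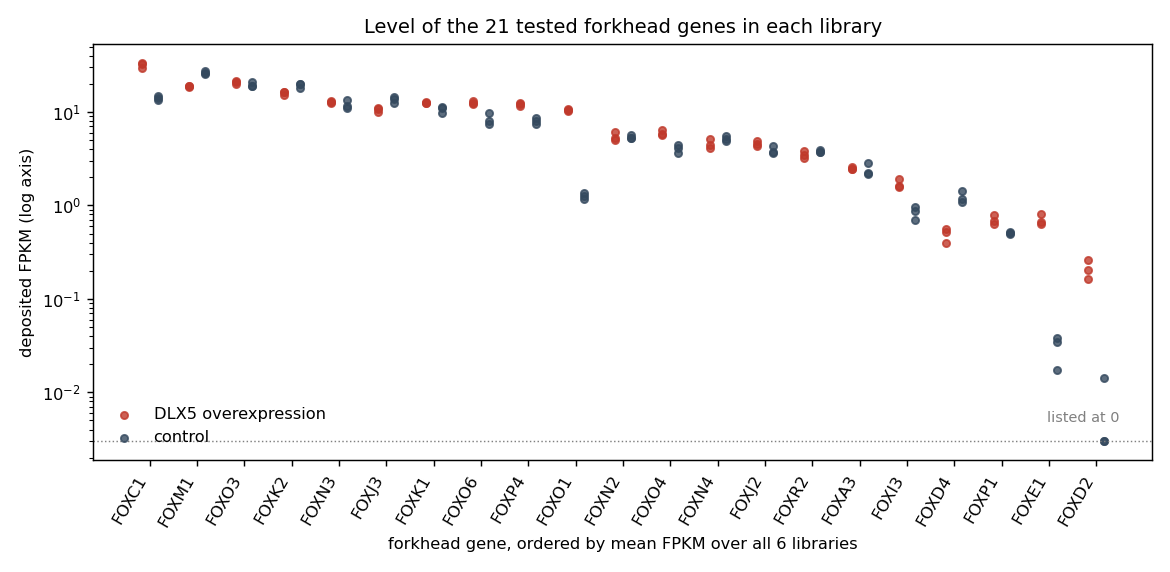
Level of each of the 21 tested forkhead genes as deposited FPKM (log axis), with 1 point for each of the 3 DLX5 overexpression libraries (red) and the 3 control libraries (dark blue). FOXO1 separates most among the genes above 1 FPKM, and the 2 control libraries without a FOXD2 read are drawn on the dotted line for values listed at 0.

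FPKM values, which are counts divided by gene length and library total, allow levels to be compared between genes. With DLX5, FOXC1 had the highest level, followed by FOXO3, FOXM1 and FOXK2, and the libraries of neighbours in this order did not overlap. FOXN3, FOXK1, FOXO6 and FOXP4 followed at 12.73 to 12.07 FPKM, each overlapping with the next. In controls FOXM1 was highest, FOXO3 and FOXK2 followed with overlapping libraries, and FOXC1 stood at rank 4, overlapping with FOXJ3. FOXO1 was at rank 10 with DLX5 and at rank 16 in controls. The order leans on the gene lengths of the file, which join all exons of a gene: divided by the longest coding transcript instead, FOXK2 came to 30.2 ± 1.41 with DLX5 and 36.3 ± 2.11 in controls, FOXM1 to 26.5 ± 0.414 with DLX5 and 36.9 ± 1.42 in controls, and FOXC1 to 31.8 ± 1.95 with DLX5 and 14.1 ± 0.673 in controls (SD, n = 3 each). FOXP1 is the extreme case, with a length of 36714 bases in the file and 8994 bases in its longest coding transcript, so that its deposited levels of 0.7017 FPKM with DLX5 and 0.509 FPKM in controls became 2.86 with DLX5 and 2.08 in controls. FOXP1 also shares 2539 exonic bases with AC097634.4, a coding gene on the same strand with 0 counts. Whether reads of that stretch were lost to both genes was not tested.

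FOXO1, a transcription factor that insulin and growth factor signals switch off through AKT, changed most among the well-expressed forkhead genes. It lies on chromosome 13 from 40469953 to 40666597 on the minus strand (GRCh38, ENSG00000150907). Its levels were 10.37, 10.64 and 10.27 FPKM with DLX5 overexpression and 1.259, 1.354 and 1.175 FPKM in the controls. All 3 DLX5 libraries were thus far above all 3 controls, and the libraries of a group lay close together. The log2 fold change was 3.05 ± 0.09 (SE), or 8.258-fold (adjusted p = 1.20e-20 by the quasi-likelihood test of edgeR, as for all adjusted p-values here). The summed counts gave a ratio of 8.26 (95% counting interval 7.43 to 9.21, covering counting error only). On log2(FPKM + 1), which understates low levels, the difference was 2.34. LINC00598, a noncoding gene on the same strand that shares 269 exonic bases with FOXO1, had 39 counts with DLX5 and 7 in controls. It was higher too (2.39 ± 0.63, adjusted p = 2.03e-03), and its 46 counts equal 1.29% of those of FOXO1. The nearest tested coding genes were MRPS31 at 62.5 kb, which did not pass (0.04 ± 0.11, adjusted p = 0.802), and COG6 at 678.3 kb, which was higher (0.74 ± 0.10, adjusted p = 3.3e-07).

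The other FOXO genes moved less. FOXO6, a member known mainly from the brain, averaged 12.58 ± 0.463 FPKM with DLX5 and 8.404 ± 1.15 FPKM in controls (log2 fold change 0.59 ± 0.09, adjusted p = 6.59e-06). FOXO4 averaged 5.949 ± 0.327 FPKM with DLX5 and 4.062 ± 0.370 FPKM in controls (0.55 ± 0.10, adjusted p = 3.89e-05). FOXO3, the most abundant of them by deposited FPKM, had 20.63, 21.49 and 19.86 FPKM with DLX5 and 18.75, 18.81 and 20.85 FPKM in controls. These groups overlapped, and the difference of 0.09 ± 0.06 did not pass (adjusted p = 0.233). Of the 50-base words of FOXO3, 27.8% also occur in another gene, 15.7% in FOXO3B, a near copy on chromosome 17, so reads could be split between them. FOXO3B itself did not pass (329 counts with DLX5, 388 in controls, adjusted p = 0.247).

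Summed over the 4 genes, the FOXO subfamily came to 49.85, 50.42 and 48.58 FPKM with DLX5 and 33.82, 31.34 and 34.43 FPKM in controls, a ratio of 1.49 (exact two-sided permutation test, p = 0.1, the smallest that 3 against 3 libraries allow). FOXO1 made up 21.0% ± 0.186 of that sum with DLX5 and 3.82% ± 0.461 in controls, and FOXO3 41.6% ± 0.899 with DLX5 and 58.7% ± 2.81 in controls (SD, n = 3 each). The shares of FOXO6, 25.4% with DLX5 and 25.3% in controls, and of FOXO4, 12.0% with DLX5 and 12.2% in controls, differed by less than their spread. The size of these shares leans on the gene lengths of the file. Divided by the longest coding transcript, FOXO6 came to 20.4 ± 0.752 with DLX5 and 13.7 ± 1.87 in controls. FOXO3 came to 21.7 ± 0.858 with DLX5 and 20.5 ± 1.26 in controls.

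**Figure D2:**
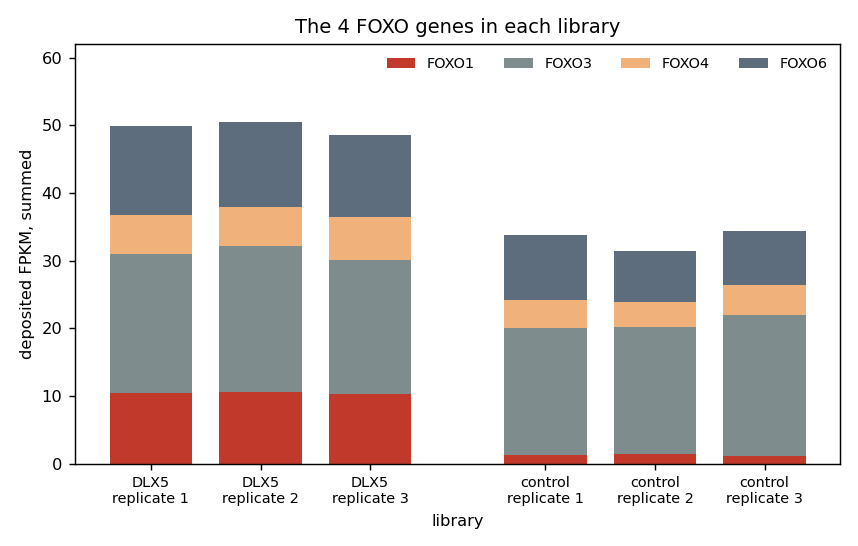
Deposited FPKM of FOXO1, FOXO3, FOXO4 and FOXO6 stacked for each library, DLX5 overexpression left and control right. The stack reaches 48.58 to 50.42 FPKM with DLX5 and 31.34 to 34.43 FPKM in controls, and the FOXO1 segment at the bottom takes 21.0% with DLX5 against 3.82% in controls.

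Genes that FOXO factors are known to switch on were mostly higher (of all tested genes, 29.8% were higher and 28.8% lower). Of 34 such genes 25 could be tested, and 19 were higher, 4 lower and 2 not passing. Their median log2 fold change was 0.41, against 0.00 over all tested genes. BCL6, a transcriptional repressor, averaged 1.802 FPKM with DLX5 and 0.2403 FPKM in controls (2.90 ± 0.18, adjusted p = 1.48e-13). IL7R, a cytokine receptor chain that FOXO1 controls in lymphocytes, averaged 1.823 FPKM with DLX5 and 0.2122 FPKM in controls (3.10 ± 0.20, adjusted p = 3.08e-13). CITED2, a coactivator-binding protein, averaged 20.71 FPKM with DLX5 and 4.063 FPKM in controls (2.35 ± 0.10, adjusted p = 3.41e-17). TXNIP, an inhibitor of thioredoxin, averaged 107.1 FPKM with DLX5 and 58.88 FPKM in controls (0.86 ± 0.06, adjusted p = 7.10e-13). The 4 lower genes were SESN1, BCL2L11, BNIP3 and INSR, at -0.56 to -0.53, and the cell cycle inhibitor CDKN1B did not pass at -0.09 ± 0.07. ERBB3 of this list is also among the Schwann cell markers.

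Among 27 tested genes for proteins that modify or bind FOXO factors, 5 were higher and 10 lower, and the other 12 did not pass (median -0.05). That is 15 of 27 called, near the 58.6% of all tested genes. IGF1R, a growth factor receptor upstream of AKT, was higher (0.94 ± 0.06, adjusted p = 9.20e-13), as was the kinase STK3 (1.02 ± 0.10, adjusted p = 2.39e-09). MAPK8, the stress kinase JNK1, was lower (-0.74 ± 0.06, adjusted p = 1.42e-10), and so was PIK3R1, the regulatory subunit of PI3 kinase (-0.70 ± 0.07, adjusted p = 6.60e-09). AKT1 at -0.05 and AKT2 at 0.00 did not pass. RNA levels do not show the phosphorylation that controls where FOXO proteins are in the cell.

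FOXC1, a factor of mesenchyme and eye development, lies on chromosome 6 from 1609972 to 1613897 on the plus strand (ENSG00000054598). It had 32.37, 29.64 and 33.42 FPKM with DLX5 and 14.84, 13.50 and 14.04 FPKM in controls. The groups were well apart, and the log2 fold change was 1.17 ± 0.07 (2.256-fold, adjusted p = 2.86e-14). Its share of all forkhead FPKM was 16.8% ± 1.08 with DLX5 and 8.76% ± 0.393 in controls. On the same arm, FOXQ1 and FOXF2, which end 295.2 and 214.4 kb before FOXC1, had 0 counts in all 6 libraries, while FOXC1 had 8804. FOXCUT, a noncoding gene beside FOXC1, had 49 counts with DLX5 and 34 in controls and did not pass (0.50 ± 0.38, adjusted p = 0.264). The nearest tested coding genes were GMDS at 9.9 kb, which did not pass (0.03 ± 0.11, adjusted p = 0.855), and EXOC2 at 916.9 kb (0.23 ± 0.08, adjusted p = 9.54e-03). The paralog FOXC2 had 2 counts in each group.

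FOXE1 and FOXD2 were nearly silent in controls and passed the filter on low counts only through the DLX5 libraries. FOXE1, a thyroid and palate factor on chromosome 9 (97853254 to 97856715, plus strand), had 39, 34 and 47 counts with DLX5 and 2, 1 and 2 counts in controls. All DLX5 libraries were above all controls, and the ratio of the summed counts, 120 against 5, was 23.7 (counting interval 9.90 to 74.5; log2 fold change 4.47 ± 0.45, adjusted p = 2.88e-09). Its level with DLX5, 0.7063 ± 0.0983 FPKM, stayed under 1 FPKM, and on log2(FPKM + 1) the difference was 0.73. FOXE3, a lens factor and the other member of the subfamily, had 7 counts with DLX5 and 12 in controls and was not tested. Beside FOXE1, XPA (-0.18 ± 0.13, adjusted p = 0.219) and TRMO (-0.36 ± 0.16, adjusted p = 0.0563) did not pass.

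FOXD2, a factor of mesenchyme on chromosome 1 (47436017 to 47440691, plus strand), had 16, 12 and 20 counts with DLX5 and 1, 0 and 0 counts in controls. The summed counts, 48 against 1, stood at 47.5 to 1 (counting interval 8.13 to 1910), so its size is known only roughly (log2 fold change 5.12 ± 0.76, adjusted p = 2.25e-06; 0.27 on log2(FPKM + 1)). FOXD2-AS1, the noncoding gene next to it, had 26, 17 and 21 counts with DLX5 and 2, 0 and 3 counts in controls (3.56 ± 0.56, adjusted p = 4.36e-06). The next tested coding gene on the right, TRABD2B at 319.8 kb, was also higher, at 72.6 CPM with DLX5 and 6.14 CPM in controls (3.57 ± 0.10, adjusted p = 2.21e-21). On the left, CMPK1 at 57.2 kb had 96.4 CPM with DLX5 and 60.9 CPM in controls (0.66 ± 0.07, adjusted p = 8.25e-09).

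FOXD4 was the forkhead gene that fell by more than 2-fold. It lies at the end of chromosome 9 (116231 to 118204, minus strand) and had 13, 17 and 17 counts with DLX5 and 42, 36 and 38 counts in controls. No DLX5 library reached the lowest control, and the log2 fold change was -1.31 ± 0.29 (adjusted p = 3.97e-04), or -0.58 on log2(FPKM + 1). FOXD4 has near-identical copies, and 63.1% of its 50-base words also occur in another gene, mostly in FOXD4L1 and FOXD4L3, so its counts cannot be given to this gene with certainty. FOXD4 and the 5 copies together had 18, 24 and 18 counts with DLX5 and 57, 52 and 56 in controls, 0.360 times as many (counting interval 0.263 to 0.486; exact two-sided permutation test on CPM, p = 0.1, the smallest possible). Of the copies, FOXD4L1 had 6 counts with DLX5 and 24 in controls, FOXD4L4 4 with DLX5 and 20 in controls, and FOXD4L6 0 with DLX5 and 4 in controls. The neighbours went both ways, with CBWD1 at -0.36 ± 0.11 (adjusted p = 4.88e-03) and WASHC1 at 0.50 ± 0.11 (adjusted p = 4.86e-04).

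The neural crest specifier FOXD3 had 0 counts with DLX5 and 1 in controls. FOXD1, a factor of kidney stroma and retina, had 7 counts with DLX5 and 9 in controls. The FOXD subfamily as a whole summed to 0.8653 ± 0.0935 FPKM with DLX5 and 1.742 ± 0.184 FPKM in controls (ratio 0.497, exact permutation p = 0.1), a sum in which FOXD4 is the larger part.

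FOXM1, which activates the genes of G2 and mitosis together with the MuvB complex, had 18.50, 18.90 and 19.08 FPKM with DLX5 and 25.93, 25.47 and 27.40 FPKM in controls. The groups did not overlap, and the log2 fold change was -0.48 ± 0.06 (0.7177-fold, adjusted p = 1.46e-07). FOXM1 shares 781 exonic bases with ITFG2 on the opposite strand. Without known strand, reads of that stretch cannot be told apart. ITFG2 had 1980 counts over all libraries, or 18.4% of the 10744 of FOXM1, and was lower too (-0.35 ± 0.10, adjusted p = 3.15e-03). For FOXM1, the counts with DLX5 summed to 4516, against 6228 in controls.

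Of 26 tested FOXM1 targets of G2 and mitosis, 15 were higher, 4 lower and 7 not passing (median 0.31), where 29.8% of all tested genes were higher and 28.8% lower. CDC20, an activator of the anaphase-promoting complex, averaged 73.53 FPKM with DLX5 and 32.06 FPKM in controls (1.20 ± 0.06, adjusted p = 4.70e-15). The kinetochore genes CENPE and CENPF averaged 5.822 and 37.33 FPKM with DLX5 against 1.816 and 17.41 FPKM in controls (1.68 ± 0.11, adjusted p = 2.94e-13, and 1.10 ± 0.08, adjusted p = 1.73e-12). KIF20A, a kinesin of cytokinesis, averaged 23.0 FPKM with DLX5 and 12.8 FPKM in controls (0.85 ± 0.06, adjusted p = 1.04e-11). The 4 lower genes were CKS1B, BIRC5, UBE2C and BUB1B.

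Most genes of the MuvB complex and its MYB partner were lower, 5 of 6 tested, with a median of -0.46, where 28.8% of all tested genes were lower. MYBL2, the B-MYB factor that acts before FOXM1 in the cycle, averaged 61.45 FPKM with DLX5 and 94.57 FPKM in controls (-0.62 ± 0.06, adjusted p = 5.44e-10). RBBP4, a histone-binding subunit, was at -0.42 ± 0.06 (adjusted p = 4.59e-07), LIN52 at -0.57 ± 0.10 (adjusted p = 2.52e-05) and LIN9 at -0.49 ± 0.09 (adjusted p = 5.28e-05). LIN37, at 0.5847 FPKM with DLX5 and 0.3217 FPKM in controls, was higher (0.86 ± 0.31, adjusted p = 0.0204), but no longer passed without DLX5 overexpression replicate 1 or 3 or without control replicate 1 or 3, when the count of higher genes was 0.

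**Figure D3:**
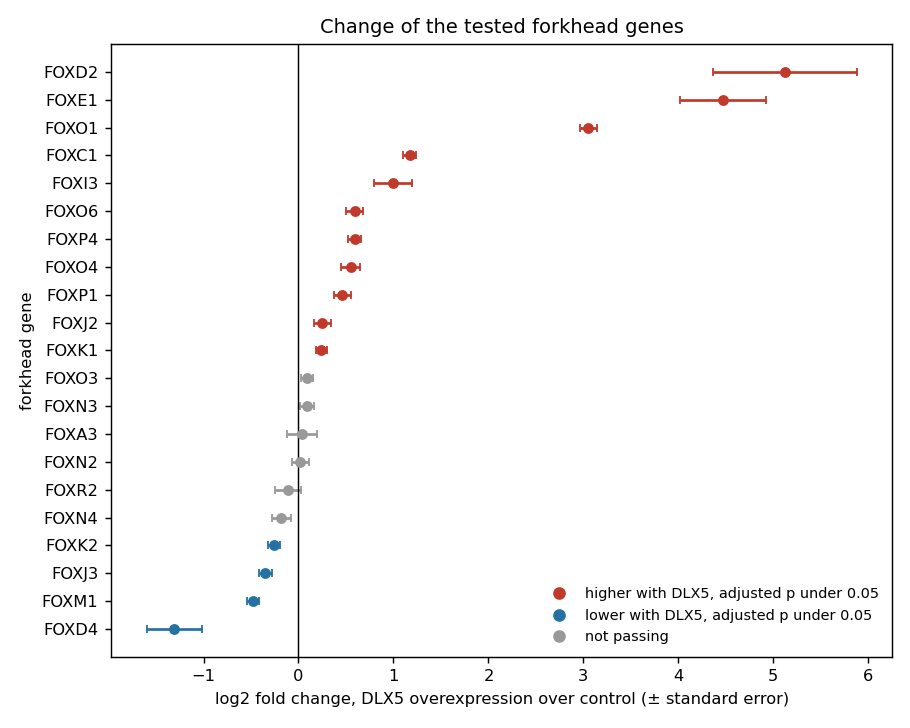
Log2 fold change of the 21 tested forkhead genes, DLX5 overexpression over control, with bars of 1 standard error. Red genes were higher, blue genes lower and grey genes did not pass at an adjusted p of 0.05; FOXD2, FOXE1 and FOXO1 lie at 5.12, 4.47 and 3.05 and FOXD4 at -1.31.

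In the FOXK and FOXJ subfamilies, as with FOXD2 and FOXD4 above, the 2 tested paralogs passed in opposite directions. FOXK1 and FOXK2 are repressors that bring the SIN3 complex to autophagy and metabolic genes. FOXK2 had 16.47, 15.07 and 16.21 FPKM with DLX5 and 19.84, 17.85 and 19.70 FPKM in controls, so it was lower without overlap (-0.26 ± 0.06, adjusted p = 7.03e-04). FOXK1 had 12.45, 12.90 and 12.43 FPKM with DLX5 and 10.92, 9.811 and 11.20 FPKM in controls, higher without overlap (0.24 ± 0.06, adjusted p = 1.38e-03). Both changes are small, and their sum of 28.51 ± 0.488 FPKM with DLX5 and 29.77 ± 1.83 FPKM in controls differed by less than the spread of the controls (exact permutation p = 0.4). FOXK2 made up 55.8% ± 1.68 of the sum with DLX5 and 64.3% ± 0.442 in controls. The size of this share also leans on the gene lengths of the file. Divided by the longest coding transcript, FOXK2 came to 30.2 and FOXK1 to 14.7 with DLX5, against 36.3 and 12.5 in controls. The 53 exonic bases that FOXK2 shares with WDR45B lie opposite to a gene that did not pass (-0.05 ± 0.06, adjusted p = 0.485). FOXK2 also shares 1190 exonic bases with AC124283.1 (0 counts) and 162 with AC124283.2 (63 counts), both on the opposite strand. Whether reads of these stretches were lost to FOXK2 was not tested.

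FOXJ3, a factor known from muscle and testis in mice, had 10.04, 11.02 and 10.83 FPKM with DLX5 and 12.40, 13.79 and 14.38 FPKM in controls (-0.35 ± 0.07, adjusted p = 9.13e-05). Its paralog FOXJ2 averaged 4.583 ± 0.317 FPKM with DLX5 and 3.859 ± 0.356 FPKM in controls (0.25 ± 0.09, adjusted p = 0.0197). That rise was close to the threshold: it no longer passed without DLX5 overexpression replicate 3 (adjusted p = 0.116) or without control replicate 1 or 3 (adjusted p = 0.0809 and 0.0806), nor with DESeq2 (adjusted p = 0.0721). FOXJ1, the master factor of motile cilia, had 10 counts in each group. Of 13 tested genes of its programme 4 were higher, 1 lower and 8 not passing (median 0.01), so the share higher was near the 29.8% of all tested genes, and the share lower was under their 28.8%. The axonemal dynein gene DNAH5 was higher (1.56 ± 0.29, adjusted p = 4.56e-05), as were RFX2, a ciliary transcription factor (0.46 ± 0.10, adjusted p = 2.56e-04), and SPAG6 of the central pair (0.63 ± 0.14, adjusted p = 5.49e-04), while the dynein gene DNAH9 was lower (-1.13 ± 0.28, adjusted p = 1.05e-03). Without DLX5 overexpression replicate 2 or control replicate 3, 2 of these genes were lower.

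FOXP4, a repressor of lung and neural development, averaged 12.07 ± 0.362 FPKM with DLX5 and 8.021 ± 0.629 FPKM in controls (0.59 ± 0.07, adjusted p = 5.89e-08). FOXP1, of the same subfamily, was higher by 0.46 ± 0.09 (adjusted p = 1.27e-04), with 394, 448 and 416 counts with DLX5 and 276, 319 and 310 in controls. FOXP2, known for its role in speech circuits, had 0 counts in every library. FOXP3, the factor of regulatory T cells, had 18 counts with DLX5 and 24 in controls, and it shares 91 exonic bases with CCDC22 on the opposite strand, a gene with 1462 counts. The FOXP sum was 12.91 ± 0.337 FPKM with DLX5 and 8.719 ± 0.691 FPKM in controls (ratio 1.48, exact permutation p = 0.1). FOXP4-AS1 had 35 counts with DLX5 and 13 in controls and was not tested.

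Among the 12 genes for corepressors that FOXP factors bind, 2 were higher, 6 lower and 4 not passing (median -0.13), beside 29.8% higher, 28.8% lower and 58.6% in either direction among all tested genes. HDAC2, a histone deacetylase (-0.48 ± 0.06, adjusted p = 1.04e-07), and GATAD2A of the NuRD complex (-0.45 ± 0.06, adjusted p = 1.37e-06) were lower. The remodeller CHD3 was higher (0.25 ± 0.06, adjusted p = 9.82e-04). The count of 6 lower genes was 2 without DLX5 overexpression replicate 1, 3 without replicate 3, and 8 when libraries were compared by total counts alone. Of 9 genes for FOXK partners, 2 were higher, the sugar transferase OGT (0.40 ± 0.06, adjusted p = 7.74e-06) and ASXL1 (0.23 ± 0.06, adjusted p = 1.64e-03), and 2 lower, the OGT-bound coregulator HCFC1 (-0.22 ± 0.07, adjusted p = 6.00e-03) and the Wnt protein DVL1 (-0.19 ± 0.06, adjusted p = 0.0115), neither count above the share of all tested genes (29.8% higher, 28.8% lower). SIN3A and SIN3B did not pass. Of these partners, 1 was lower without DLX5 overexpression replicate 2 or control replicate 1, and 5 were lower when libraries were compared by total counts alone, a scaling that shifted the median of all genes to -0.07.

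The FOXN subfamily did not pass as far as it could be tested. FOXN3, a repressor linked to cell cycle checkpoints, had 12.50, 13.05 and 12.64 FPKM with DLX5 and 11.60, 10.87 and 13.38 FPKM in controls, with overlapping groups (0.09 ± 0.07, adjusted p = 0.248). Without the highest control, replicate 3, FOXN3 was at 0.18 and passed (adjusted p = 0.0284). FOXN2 was at 0.02 ± 0.09 (adjusted p = 0.888). FOXN4, a factor of retinal and spinal interneurons, was at -0.18 ± 0.10 (adjusted p = 0.135), and at -0.27 without DLX5 overexpression replicate 2, where it passed (adjusted p = 0.0457). FOXN1, the thymus factor, had 4 counts with DLX5 and 0 in controls. FOXN3-AS1, antisense to FOXN3, was lower, with 48, 36 and 52 counts with DLX5 and 57, 64 and 81 in controls (-0.59 ± 0.21, adjusted p = 0.0172).

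FOXI3, a factor of the ectodermal placodes, rose to 1.687 ± 0.186 FPKM with DLX5, against 0.8493 ± 0.138 FPKM in controls (0.99 ± 0.20, adjusted p = 1.67e-04). With 75, 83 and 73 counts with DLX5 and 37, 33 and 45 in controls, it lay just under a 2-fold change. FOXA3, a liver and gut factor (0.04 ± 0.16, adjusted p = 0.850), and FOXR2, which drives some childhood brain tumours (-0.11 ± 0.14, adjusted p = 0.523), did not pass.

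The other 28 forkhead genes were not tested. Of these, 18 had at least 1 count. FOXS1, a gene of sensory neurons and pericytes in mice, had 28 counts with DLX5 and 13 in controls. FOXH1, a partner of SMAD proteins, had 13 counts with DLX5 and 14 in controls, but shares 791 exonic bases with KIFC2, which had 6655 counts. FOXR1 had 3 counts with DLX5 and 7 in controls, and FOXD4L3 had 2 with DLX5 and 1 in controls. FOXL2 had 4 counts with DLX5, FOXI1 had 2, and FOXA2 and FOXD4L5 had 1 each, and these 4 genes had 0 counts in controls. The remaining 10, among them FOXA1, FOXB1, FOXB2, FOXF1, FOXF2, FOXI2, FOXL1, FOXP2 and FOXQ1, had 0 counts in all 6 libraries, and for a single library 0 counts allow up to 3. On chromosome 16, FOXF1, FOXC2 and FOXL1 lie in a row, with 61.0 kb between the end of FOXF1 and the start of FOXL1, and had 0, 4 and 0 counts in all, and FENDRR beside FOXF1 had 0. LINC00261, FOXL2NB, FOXC2-AS1, FOXD1-AS1, FOXD3-AS1 and FOXO1B also had 0 counts in every library.

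Summed over all 49 genes, forkhead FPKM came to 188.3, 190.6 and 190.2 with DLX5 and 162.0, 154.1 and 168.2 in controls, a ratio of 1.18 (exact permutation p = 0.1, the smallest possible). The FOXO genes were 26.2% ± 0.534 of the sum with DLX5 and 20.6% ± 0.281 in controls, and FOXM1 9.92% ± 0.102 with DLX5 and 16.3% ± 0.264 in controls (SD, n = 3 each). All FPKM sums and shares given here use the gene lengths of the file.

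Other genes that work beside forkhead factors were counted in the same way. Hedgehog signalling, which controls several FOX genes in mesenchyme, had 12 of 15 genes tested, with 6 higher, 1 lower and 5 not passing, and a median of 0.64. The 7 of 12 called are near the 58.6% of all tested genes, of which 29.8% were higher and 28.8% lower. The coreceptor CDON (1.60 ± 0.07, adjusted p = 3.17e-17) and the effector GLI2 (1.39 ± 0.09, adjusted p = 1.37e-13) were higher, as was the coreceptor GAS1 (0.80 ± 0.08, adjusted p = 2.56e-09). The 1 lower gene was PTCH1, the main receptor (-0.31 ± 0.07, adjusted p = 2.76e-04). Neural crest specifiers outside the forkhead family had 10 of 15 genes tested, with 6 higher, 2 lower and 2 not passing (median 0.30), beside the same shares of all tested genes. MSX2 (1.99 ± 0.08, adjusted p = 3.87e-18) and ETS1 (0.96 ± 0.06, adjusted p = 1.09e-12) were higher, and TFAP2B (-1.61 ± 0.06, adjusted p = 2.27e-18) and SNAI1 (-2.0 ± 0.13, adjusted p = 4.27e-13) were lower.

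**Figure D4:**
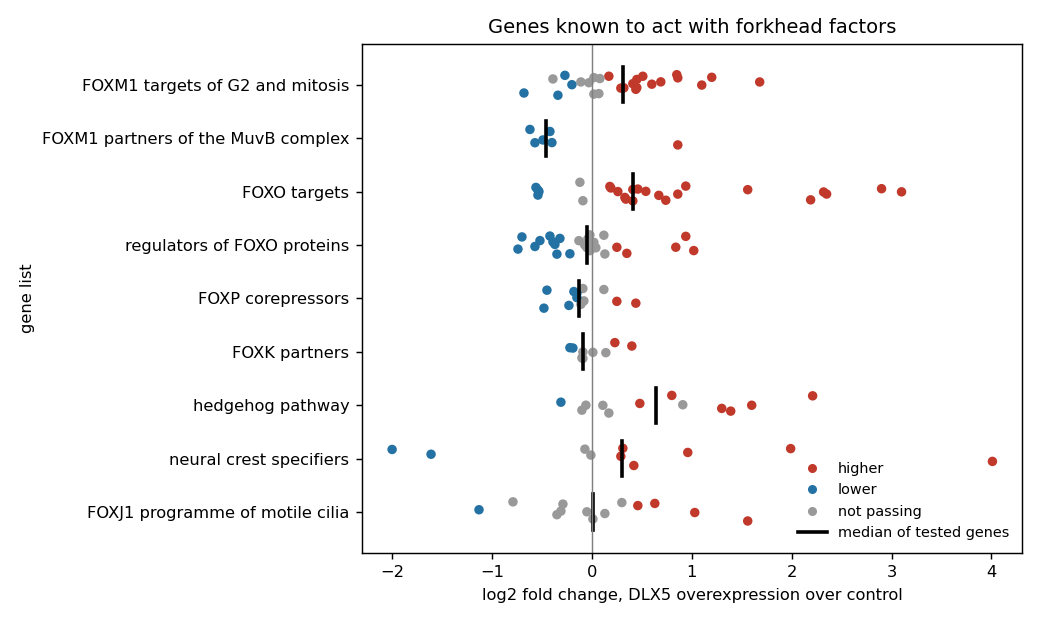
Log2 fold change, DLX5 overexpression over control, of each tested gene in 9 lists of genes known to act with forkhead factors, coloured by whether the gene was higher, lower or did not pass, with a black bar at each list's median. The medians run from -0.46 for the MuvB partners of FOXM1 to 0.64 for the hedgehog pathway.

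Promoter windows, from 250 bases before to 50 after the RefSeq start, are shown for the genes with the largest rise and the largest fall, FOXD2 (chr1:47437794-47438093, plus strand) and FOXD4 (chr9:118368-118667, minus strand), and for FOXO1 (chr13:40666592-40666891, minus strand), which was added after its values were seen. They are from RefSeq on GRCh38.p14, read 5′ to 3′ on the strand of the gene, with CG dinucleotides in capitals.
FOXD2: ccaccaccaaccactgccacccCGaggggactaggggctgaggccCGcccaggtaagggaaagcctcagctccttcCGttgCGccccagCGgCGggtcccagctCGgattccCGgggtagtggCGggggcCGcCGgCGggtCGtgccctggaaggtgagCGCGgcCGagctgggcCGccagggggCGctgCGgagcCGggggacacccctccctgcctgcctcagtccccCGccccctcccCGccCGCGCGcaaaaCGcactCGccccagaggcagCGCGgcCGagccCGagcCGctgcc
FOXO1: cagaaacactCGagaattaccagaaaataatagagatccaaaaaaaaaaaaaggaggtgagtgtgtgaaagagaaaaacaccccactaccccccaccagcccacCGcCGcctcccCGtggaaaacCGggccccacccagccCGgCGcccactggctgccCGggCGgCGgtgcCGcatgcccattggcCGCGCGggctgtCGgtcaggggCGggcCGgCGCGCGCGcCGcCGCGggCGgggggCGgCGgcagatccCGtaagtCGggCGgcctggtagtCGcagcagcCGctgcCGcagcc
FOXD4: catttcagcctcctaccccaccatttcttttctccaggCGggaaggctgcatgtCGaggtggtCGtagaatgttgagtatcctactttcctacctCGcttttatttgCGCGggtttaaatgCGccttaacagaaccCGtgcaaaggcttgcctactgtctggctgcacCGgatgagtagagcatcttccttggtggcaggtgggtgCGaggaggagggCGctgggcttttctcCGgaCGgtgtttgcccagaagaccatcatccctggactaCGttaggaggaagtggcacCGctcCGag
FOXD2 has 32 CG dinucleotides and 76.7% G and C, FOXO1 33 and 68.0%, and FOXD4 16 and 55.3%, beside a median of 58.7% over all windows. FOXC1 (72.7%, 40 CG) and FOXE1 (76.0%, 32 CG) resemble FOXD2 in this. The start that RefSeq gives FOXD2 lies inside the longer GENCODE gene, and those of FOXD4 and FOXO1 lie outside the GENCODE gene.

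Both strands of the windows were searched for 5 short motifs. Windows were at hand for 38 of the 49 genes, 19 of them tested, and for several genes there was more than 1 start. Hits are named only for the 29 windows of the 19 tested genes, and those of untested genes are not listed. Each motif was in 2 of these 29 windows, except TTTGAA, which was in 3. The homeodomain core TAATTG, found in 7.38% of all 35116 windows, occurred among the tested forkhead genes in FOXP1 alone. The other homeodomain core, TAATTA, is its own reverse complement, was in 4.84% of windows and occurred in FOXJ3 and FOXO4. The E-box CACGTG (7.26%) occurred in FOXK1 and FOXP4, the cell cycle element TTTGAA (15.2%) in FOXJ3, FOXN3 and FOXN4, and the forkhead site GTAAACA (3.42%) in FOXO4 and FOXP1. None of these letters is in the windows of FOXD2, FOXO1, FOXD4, FOXC1 or FOXE1, which says only that they are not in these 300 bases.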

How the data were processed

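Per the labels' protocols, Trizol was used to isolate total RNA and a NEBNext Ultra kit to build the libraries. The deposited gene counts are whole numbers, and the submitters' processing notes list HISAT2 2.0.5 and featureCounts 1.5.0-p3; strand settings are not given in the sources used here. Those notes name hg19, but all 58735 genes have the starts and ends of GENCODE 29 on GRCh38, which is used here. The FPKM values deposited by the authors hold the same reads as the counts, divided by gene length and a scaled library total (0.9682 to 1.033 times the sum of counts), so they are no independent measure.

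The 6 libraries were grouped by their labels, and none was left out. Chi-square over degrees of freedom was 2.32 to 5.52 between libraries of a group, so none was taken for a copy. Genes were kept by filterByExpr (minimum count 10, minimum total 15), scaled by TMM and tested between groups by the quasi-likelihood method of edgeR 4.0.16 (two-sided) in R 4.3.3, with Benjamini-Hochberg adjustment over 17269 genes. The script was tested on simulated data. Beside a level, ± gives the SD. Beside a log2 fold change it gives the standard error, taken from the F statistic (absolute change divided by the root of F). Counting intervals are exact 95% binomial and cover counting error only.

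The members and gene lists, and the rule for named genes, were chosen with earlier results of these data known. Values in every library were given for genes that passed with at least a 2-fold change, for the 6 highest by mean FPKM and for a few others chosen after their values were seen, and from each list up to 4 genes were named by lowest adjusted p, with others chosen after their values were seen. As alternatives, the scaling was changed to upper-quartile or RLE factors, the tool to limma-voom (limma 3.58.1) or DESeq2 1.42.0, and the input to log2(FPKM + 0.1) or log2(FPKM + 1). Others were no filter, a filter of 1 CPM, a replicate block, a threshold of 0.01 on the adjusted p, CPM in place of FPKM for subfamily sums, and each library left out. Total counts with no scaling factors were added after the data were seen. A few items are not reported here.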

Additional observations from a re-analysis of the deposited data

How the results depend on the processing

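Over 17 other settings, 10 to 11 forkhead genes were higher and 4 to 6 lower, 14 to 15 of the 15 calls were shared, and the median log2 fold change of the tested forkhead genes ran from 0.17 to 0.26. The 6 lower genes came with no filter on low counts, where 39 forkhead genes were tested. All genes passing ranged from 8388 to 10481. FOXJ2 lost its call in 8 settings, and FOXN4 passed with total counts alone (-0.25, adjusted p = 0.0385). The fold change of FOXD2 ran from 0.27 on log2(FPKM + 1) to 7.02 without control replicate 1, and on log2(FPKM + 1), a scale that understates low levels, FOXE1 was at 0.73, FOXO1 at 2.34 (against 3.05) and FOXD4 at -0.58 (against -1.31); FOXD2 was not tested under the 1 CPM filter. In the lists, the MuvB partners had 0 higher genes with DESeq2 and at an adjusted p under 0.01, and 0 to 1 with a library left out. The FOXJ1 programme had 0 lower genes on log2(FPKM + 1) and 1 to 2 with a library left out. The FOXP corepressors had 3 lower genes at an adjusted p under 0.01, 8 with total counts alone and 2 to 5 with a library left out. The FOXK partners had 1 lower gene at that threshold, 5 with total counts alone and 1 to 3 with a library left out. The FOXD sum had a log2 ratio of -0.63 as CPM, against -1.01 as FPKM. Beyond the fewer calls that a stricter threshold gives, the cause of these shifts was not tested.

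No pairing by replicate number was visible: deviations of same-numbered libraries correlated at 0.03, 0.15 and -0.07, and not every library correlated best with its own number. With 3 libraries a group, such correlations cannot show whether same-numbered libraries were prepared together. With the replicate number as a block, 11 forkhead genes were higher and 4 lower, all 15 calls were shared, and 10224 genes passed in all. The filter on low counts left 28 forkhead genes untested, and with no filter the 10 genes with 0 counts remained untested.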
